A study of Mus musculus with 4 samples.

Results

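The 36 genes described here act in G2 and mitosis, the last steps of the cell cycle. They were listed by name and matched to the rows of the deposited count table, and all 36 were found among its 27998 gene symbols. The cells are GFP+ leukaemia cells sorted from marrow of C57BL6 mice, whose labelled age is 11 weeks, and were profiled by single-cell RNA sequencing. The leukaemias came from MLL-AF9, an oncogene fused in some acute myeloid leukaemias, which a retrovirus had brought into c-Kit+ marrow cells of Hif-1alpha Lox/Lox; CreERT2 mice, so every sample carries the fusion, and GFP marks the transduced cells. Primary leukaemias were transplanted again, and 10 days later the mice received 1 mg tamoxifen, which activates the Cre, or vehicle for 5 days. The mice were then given PBS or chemotherapy (cytarabine at 100 mg/kg for 5 days and doxorubicin at 3 mg/kg for 3 days), and cells were collected 3 days after the end of treatment. The 4 samples were Hif-1a wt with PBS, Hif-1a KO with PBS, Hif-1a wt with chemotherapy and Hif-1a KO with chemotherapy, 1 of each. The labels do not say how many mice each sample came from.

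One table of 5664 cell barcodes pools the 4 libraries, told apart by a barcode suffix (1, 2, 3 or 4). No source used here ties a suffix to a sample. The suffixes are therefore described as 4 libraries of unknown group, no contrast of genotype or treatment was made, and no p-value was computed, because each suffix is 1 library and cells are not replicates. After cells above 10% mitochondrial UMIs (unique molecular identifiers, which count transcript ends) were left out, 1174, 1251, 1625 and 1406 cells remained in suffixes 1 to 4, with median UMIs per cell of 6094, 6435, 5315 and 5324. The same barcode sequence occurred in 2 suffixes 17 times. Intervals given are 95% and cover counting error only. Summed markers of neutrophils ranged from 878 to 18297 UMIs per 1000000 UMIs (CPM) between suffixes (0 of 13 markers at 0 throughout), those of granulocyte precursors from 8261 to 18629 (0 of 12) and those of monocytes from 3582 to 6259 (0 of 13), while erythroid markers stayed between 2.52 and 4.33 (3 of 10) and markers of T and NK cells between 5.26 and 148 (6 of 9 at 0). The part of these differences in the suffix values below was not tested.

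A cell that has copied its DNA enters mitosis when cyclin B, bound to Cdk1, becomes active, and it leaves mitosis when the anaphase-promoting complex, a ubiquitin ligase, has cyclin B and securin destroyed. Between those points the kinetochores attach chromosomes to the spindle, and the chromosomal passenger complex corrects wrong attachments. The genes of these steps are known for being transcribed late in the cycle, through B-Myb, FOXM1 and the DREAM and MuvB complexes, which bind a short promoter element (the cell cycle homology region) often found near CCAAT boxes bound by NF-Y.

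Most promoters of the genes hold these letters, and the 6 shown are those with the element nearest before the start site. Each line gives the 100 bases before the RefSeq start site, on the strand of the gene, with the element's letters (TTTGAA, or TTCAAA where it lies on the other strand) and CCAAT (or ATTGG) in capitals. Coordinates are GRCm38.
Cdk1, chr10:69352913-69353012, minus strand: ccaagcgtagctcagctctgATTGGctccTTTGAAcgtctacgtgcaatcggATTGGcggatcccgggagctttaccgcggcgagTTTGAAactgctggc
Cks1b, chr3:89418292-89418391, minus strand: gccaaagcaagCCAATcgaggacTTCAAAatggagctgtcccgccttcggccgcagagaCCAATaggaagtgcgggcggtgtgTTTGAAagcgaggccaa
Cdc20, chr4:118437344-118437443, minus strand: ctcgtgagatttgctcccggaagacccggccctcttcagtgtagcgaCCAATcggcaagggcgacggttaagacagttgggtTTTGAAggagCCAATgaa
Kif11, chr19:37376282-37376381, plus strand: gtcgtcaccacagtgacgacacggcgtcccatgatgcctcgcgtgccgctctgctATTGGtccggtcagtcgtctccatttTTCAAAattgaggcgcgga
Ube2c, chr2:164769829-164769928, plus strand: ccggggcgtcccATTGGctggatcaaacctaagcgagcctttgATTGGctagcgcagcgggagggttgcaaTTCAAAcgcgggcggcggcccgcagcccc
Hmgb2, chr8:57511743-57511842, plus strand: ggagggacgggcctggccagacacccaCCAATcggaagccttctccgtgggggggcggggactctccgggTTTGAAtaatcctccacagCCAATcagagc

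The element nearest the start lies 15 bases before it in Cdk1, 17 in Cks1b, 18 in Cdc20, 19 in Kif11, 29 in Ube2c and 30 in Hmgb2. Promoter windows (250 bases before to 50 after the start) were held in RefSeq for 33 of the 36 genes. Of these, 25 (75.8%) held TTTGAA or TTCGAA on either strand, against 21.7% of all 27025 genes with windows of the same length. A gene was counted if any of its promoters held the letters. The letters lay on the gene's own strand within 50 bases of the start in 16 of 33 (48.5%), against 3.56% of all genes, a window chosen after the positions had been seen. CCAAT on either strand was found in 26 of 33 (78.8%), against 41.1%, and at least 2 copies in 20 (60.6%), against 13.3%. Both sets of letters stood in 22 of 33 promoters (66.7%), against 8.61%. A match is a description of letters and not evidence of binding, and genes of this kind were listed because they are known to be transcribed together.

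Transcripts of most of the 36 genes were more abundant in suffixes 1 and 2 than in suffixes 3 and 4. The summed level of the 36 genes was 4263, 3779, 2932 and 3466 CPM in suffixes 1 to 4, and that of the 54 listed S-phase genes was 5578, 4528, 3268 and 3402 CPM. Of the 36 genes, 35 reached a mean of 5 CPM, the minimum for a count, and Gtse1, a mitotic regulator of p53, did not (3.53, 3.12, 2.21 and 2.81 CPM). For 21 of the 35, the highest suffix was at least 1.5 times the lowest with an interval that excluded 1, and 41.7% of all 8244 genes at 5 CPM met the same rule. Both suffixes 1 and 2 lay above both 3 and 4 for 24 of the 35 genes (49% of all genes), the reverse held for 1, Racgap1 (27.3%), and the other 10 overlapped. The median ratio of highest to lowest was 1.57 for the 35 genes and 1.43 for all genes. With TMM scaling factors, which moved the median log2 difference of all genes between the suffix pairs by -0.12, the split was 16 genes against 4 (40.1% and 36.3% of all genes) and 16 genes met the 1.5 rule (38%). Suffix 1 was highest for 31 of the 36 genes and suffix 4 for the other 5, and suffix 4 lay above suffix 3 for all 36. No share over all genes was taken for these last counts, so how far they are particular to the 36 genes is not known.

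**Figure D1:**
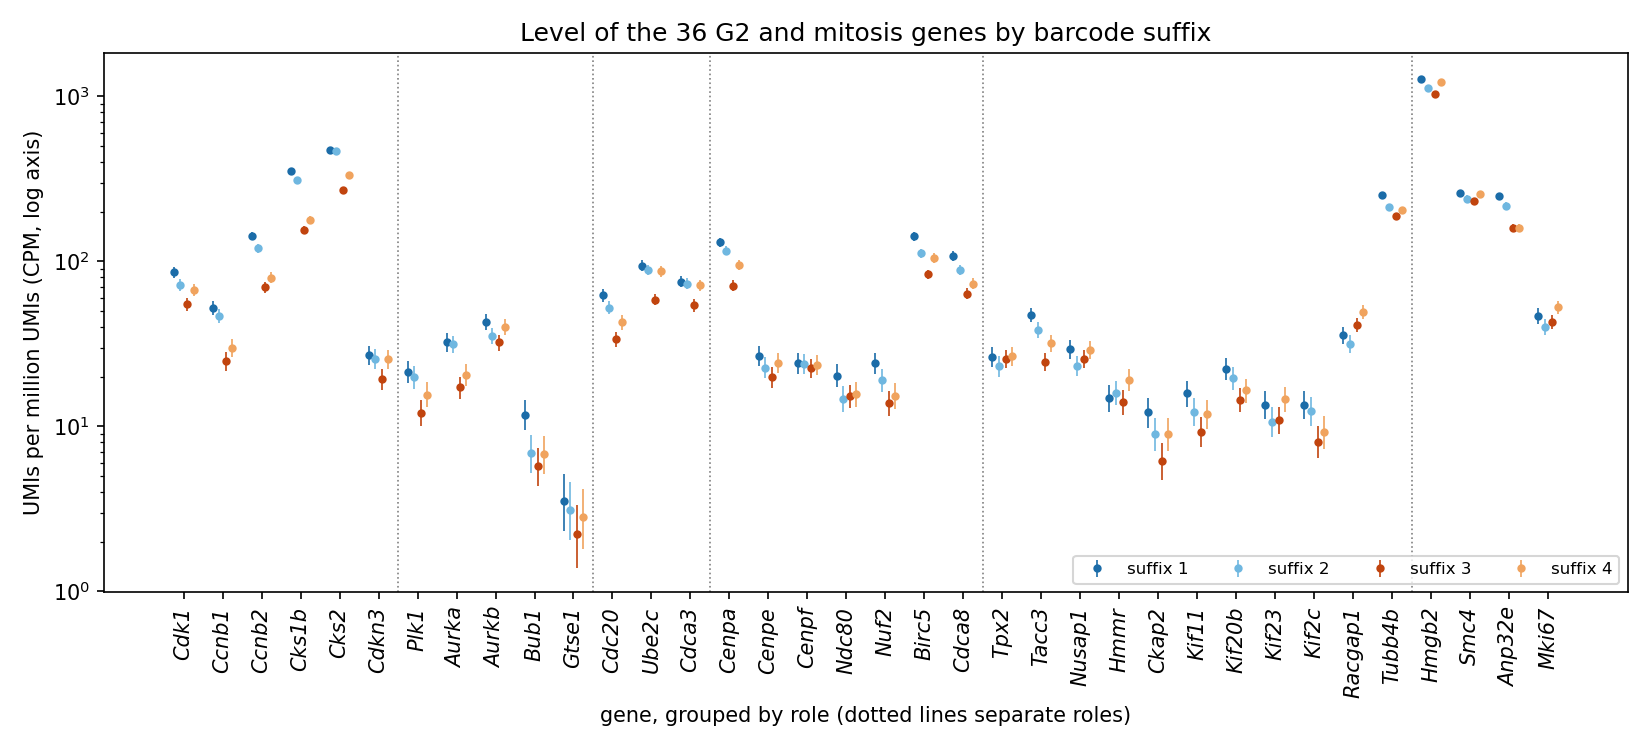
Level of each of the 36 genes in the kept cells of each barcode suffix, in CPM on a log axis, with exact Poisson 95% intervals; genes are grouped by role. Ccnb1, Ccnb2, Cks1b and Cks2 at the left have suffixes 1 and 2 clear of 3 and 4 (Cks1b, 352 and 311 against 155 and 178 CPM), while Cenpf, Tpx2 and Smc4 lie close together in all 4.

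Of the 6 cyclin and CDK genes 5 met the 1.5 rule (41.7% of all genes), and Cks1b and Ccnb1 had the highest ratios of the 36 genes. Cks1b (ENSMUSG00000028044.6, chromosome 3), a small subunit that docks Cdk complexes to their substrates, was at 352 CPM (339 to 366), 311 (299.6 to 324), 155 (147 to 163) and 178 (169 to 187) in suffixes 1 to 4, 2.27 times (2.14 to 2.42) higher in suffix 1 than in suffix 3. Its paralog Cks2 (ENSMUSG00000062248.5, chromosome 13) was at 471, 468, 272 and 334 CPM (1.73 times, 1.65 to 1.82). For both genes suffixes 1 and 2 were high, 3 and 4 were low, and no intervals crossed between the pairs. Ccnb1 (cyclin B1) was at 52.5, 46.8, 24.8 and 29.9 CPM, 2.12 times (1.80 to 2.49) higher in suffix 1 than in suffix 3. Ccnb2 (cyclin B2) was at 142, 120, 69.7 and 79.6 CPM (2.04 times). Cdk1, the kinase they switch on, had the smaller ratio of 1.57 (86.2, 71.7, 54.8 and 67.0 CPM). Cdkn3, a phosphatase that acts on Cdks, was at 27.0, 25.7, 19.3 and 25.5 CPM, and its ratio of 1.39 fell short of the rule. The labels do not say how reads shared with near-identical copies elsewhere in the genome were treated, and Hmgb2, Tubb4b and Cks1b belong to families with such copies.

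Among the mitotic kinases and checkpoint genes, Bub1, a spindle checkpoint kinase, was at 11.8 CPM in suffix 1 and at 6.84, 5.74 and 6.78 in suffixes 2 to 4, so that suffix 1 alone stood apart (2.05 times, 1.46 to 2.91). Aurka, which builds spindle poles, was at 32.3, 31.5, 17.2 and 20.6 CPM (1.88 times). Plk1, a kinase needed for mitotic entry and spindle assembly, was at 21.4, 19.8, 12.1 and 15.5 CPM (1.78 times). Aurkb, the kinase of the passenger complex, was at 42.9, 35.3, 32.2 and 40.1 CPM, where suffix 4 lay above suffix 2, and its ratio was 1.33. Of the genes around the anaphase-promoting complex, Cdc20, its mitotic activator, was at 62.3, 52.5, 33.7 and 42.7 CPM (1.85 times). Ube2c, the ubiquitin-conjugating enzyme it uses, was at 94.3, 89.0, 58.7 and 87.0 CPM, where suffix 3 alone was low.

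Of the kinetochore and passenger genes 4 of 7 met the 1.5 rule, and of the spindle and cytokinesis genes 6 of 11, against 41.7% of all genes. Cenpa, the histone H3 variant of centromeres, was at 130, 116, 71.2 and 94.8 CPM (1.83 times), and Birc5 (survivin, of the passenger complex) at 142, 112, 83.3 and 105 CPM (1.70 times). Cenpf, a large kinetochore protein, was at 24.1, 24.0, 22.6 and 23.6 CPM, with a ratio of 1.07 (0.873 to 1.303), the smallest of the 36. Ndc80 and Nuf2, which bind microtubules in the same kinetochore complex, had ratios of 1.38 and 1.75. Tacc3, a spindle stabiliser, was at 47.3, 38.2, 24.7 and 31.9 CPM (1.92 times), Ckap2, another spindle protein, at 12.2, 9.01, 6.14 and 9.01 CPM (1.98 times), and the motor Kif11, which pushes spindle poles apart, at 15.8, 12.2, 9.26 and 11.8. Racgap1, which with Kif23 forms the centralspindlin complex of cytokinesis, went the other way with 35.6, 31.6, 41.3 and 49.1 CPM (1.56 times, 1.33 to 1.82, suffix 4 over suffix 2). Kif23 itself was at 13.5, 10.7, 10.9 and 14.6 CPM, with no split between the suffix pairs. Of the 4 chromatin genes, Anp32e, a chaperone that removes H2A.Z, met the rule (249, 217, 159 and 160 CPM), while Hmgb2, a DNA-bending protein and the most abundant of the 36, was at 1276, 1120, 1030 and 1221 CPM (1.24 times), and Smc4, a condensin subunit, had a ratio of 1.12.

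Most cells held transcripts of only a few of the genes, and a small share held many. To compare cells at equal depth, each was thinned to 2000 UMIs, which left out 114 shallower cells and kept 5342. The median number of the 36 genes with a UMI was 4, 3, 2 and 2 per cell in suffixes 1 to 4, and the highest was 25. Cells with 10 or more made up 11.3% (9.49 to 13.2) of suffix 1, 9.26% (7.70 to 11.0) of suffix 2, 5.51% (4.43 to 6.75) of suffix 3 and 7.65% (6.30 to 9.17) of suffix 4. Cells with 2 or fewer made up 31.0%, 34.5%, 59.1% and 53.4%. Suffixes 1 and 2 thus held more cells with many of the genes and far fewer with almost none, although the intervals of suffixes 2 and 4 overlap for the upper share. At full depth the shares with 10 or more were 36.1%, 30.1%, 17.2% and 19.6%. Before thinning, the 436 cells with 10 or more had a median of 8196 UMIs, against 4802 in the 2453 cells with 2 or fewer, and the part of total RNA content in the suffix values was not tested.

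**Figure D2:**
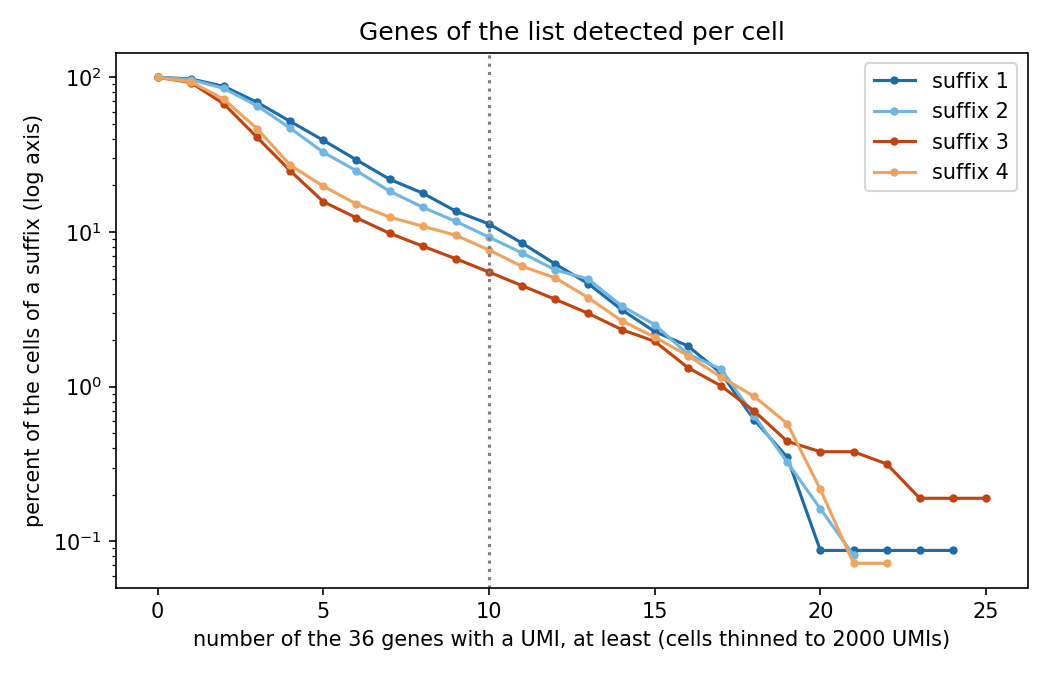
Percent of the thinned cells of each suffix (log axis) that hold a UMI of at least the given number of the 36 genes; the dotted line marks 10. Suffixes 1 and 2 lie above 3 and 4 at 10 genes (11.3% and 9.26% against 5.51% and 7.65%) and up to 17 genes. The lines of the pairs mix further right, where few cells are left.

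The genes fell into a broad group of 6 and a narrow group of 30. Hmgb2 had a UMI in 72.0% of thinned cells, Cks2 in 46.6%, Smc4 in 34.2%, Cks1b in 28.5%, Anp32e in 27.6% and Tubb4b, a beta-tubulin, in 25.01%. Cells that held 10 or more of the other genes carried 15.2% to 27.4% of the UMIs of these 6. Such cells, 6.40% to 8.14% of all depending on the gene left out, carried 32.2% to 69.4% of the UMIs of the other 30 genes. Hmmr, a spindle-associated protein, had 69.4% of its UMIs there, Plk1 68.3%, Ube2c 67.9% and Cenpf 64.9%. Birc5 had a UMI in 63.8% of cells with 10 or more other genes and in 1.74% of cells with 2 or fewer, and Ube2c in 53.8% and 1.73%. As a background for single UMIs, no cell type lacking these genes was available. In the cluster led by Cd74 (194 cells, 1105 CPM summed, the lowest level but for a cluster of 37 cells), 0 of 190 thinned cells held a Cdc20 UMI, which by the limit of 3 counts allows a share of up to 1.58% (upper bound of the exact binomial interval 1.92%), against 5.77% of all thinned cells, while Cks2 was seen in 23.2% and Hmgb2 in 40.5%. Median depth before thinning was 3910 UMIs in that cluster and 5866 in all thinned cells.

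The gap between suffixes was next described within ranges of cells. Among cells with 10 or more of the other genes, Cdc20 was at 256, 264, 226 and 248 CPM in suffixes 1 to 4 and Ccnb1 at 224, 248, 221 and 233 CPM, so the suffixes were close to each other there. Cks1b was at 702, 698, 531 and 516 CPM in such cells. In cells with 2 or fewer, Cks1b was at 163 CPM (137 to 193), 153 (130 to 179), 58.0 (47.9 to 69.6) and 65.7 (53.7 to 79.7), and Cks2 at 362, 387, 181 and 215 CPM. The split of Cks1b and Cks2 was thus present in cells with few of the other genes as well. Anp32e showed it more weakly there (136, 143, 87.6 and 102 CPM), and 3 others of the broad group did not, Hmgb2 (598, 560, 497 and 598 CPM), Smc4 (199, 171, 174 and 200.3 CPM) and Tubb4b (117, 90.02, 91.5 and 102 CPM). Of the narrow genes, Ccnb2 was at 19.4, 37.5, 7.45 and 6.71 CPM in such cells and Cdk1 at 20.5, 17.4, 10.6 and 4.69 CPM. Both were higher in suffixes 1 and 2. For Ccnb2 the interval of suffix 2 (25.8 to 52.7) lay above those of suffixes 3 (4.07 to 12.5) and 4 (3.22 to 12.3). That of suffix 1 (10.6 to 32.5) overlapped them. For Cdk1 the intervals of suffixes 1 and 2 overlapped that of suffix 3 but not that of suffix 4.

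Within the cells that held many of the genes, the order of the suffixes was no longer that of all cells. In cells with 10 or more of the other genes, 14 of 35 genes were higher in both of suffixes 3 and 4 than in both of 1 and 2 (16.9% of all genes), 5 were the other way (25.8%) and 16 overlapped. With TMM factors these counts were 17 and 2, and no share over all genes was taken for them. The factors, from all kept cells, were 1.06, 1.02, 0.952 and 0.968 in suffixes 1 to 4. Dividing by them raises every gene in suffixes 3 and 4 relative to suffixes 1 and 2. All these counts rest on the order of the values alone, with no rule on intervals. Mki67, the proliferation antigen that coats mitotic chromosomes, was at 126 CPM (85.0 to 179.9), 183 (131 to 248), 275 (199.8 to 369) and 227 CPM (165 to 304) in suffixes 1 to 4 of such cells. Only its intervals of suffixes 1 and 3 stood apart. Nusap1, a spindle protein, was at 134 (92.3 to 188), 137 (93.2 to 195), 200 (137 to 282) and 216 CPM (158 to 289), with overlapping intervals. Hmgb2 was at 3010, 2478, 3549 and 3867 CPM. These 3 are among the 14, and were chosen after their values were seen. In cells with 2 or fewer of the other genes, 3 of 35 were higher in suffixes 3 and 4 (23.7% of all genes) and 11 in suffixes 1 and 2 (39.2%). Racgap1 was 1 of the 3, at 6.98, 10.5, 19.0 and 17.9 CPM, with Cdc20 and Cenpf, which had under 6 CPM in every suffix.

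Pairs of the genes were seen together in the same cell more often than their separate shares give. For each pair, the number of thinned cells with both was divided by the number expected if the shares were independent within a suffix. Of 630 pairs, 529 reached a ratio of 1.5, the median was 3.13, and 388 reached 1.5 in each of the 4 suffixes. No share over pairs of other genes stands beside the pair counts given here, so how far they exceed such a background is not known. The 3 pairs under 1 all involve Gtse1 with under 1 cell expected. Among the 488 pairs with at least 5 cells expected, 392 reached 1.5, and the ratio ran from 1.04 for Cks2 and Smc4 (892 cells against 856) to 7.45 for Ccnb1 and Plk1 (51 cells against 6.85). Ube2c with Hmmr had a ratio of 6.93 (58 against 8.37) and Ube2c with Plk1 6.91 (74 against 10.7). Cks1b and Cks2 were co-detected in 920 cells, 1.20 times the expected number. A gene seen in a large share of cells cannot reach a high ratio with any partner. The number expected is then already close to the number of cells with the partner. When shares were taken within a suffix and a cluster, the median ratio was 2.28 and 483 pairs reached 1.5.

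**Figure D3:**
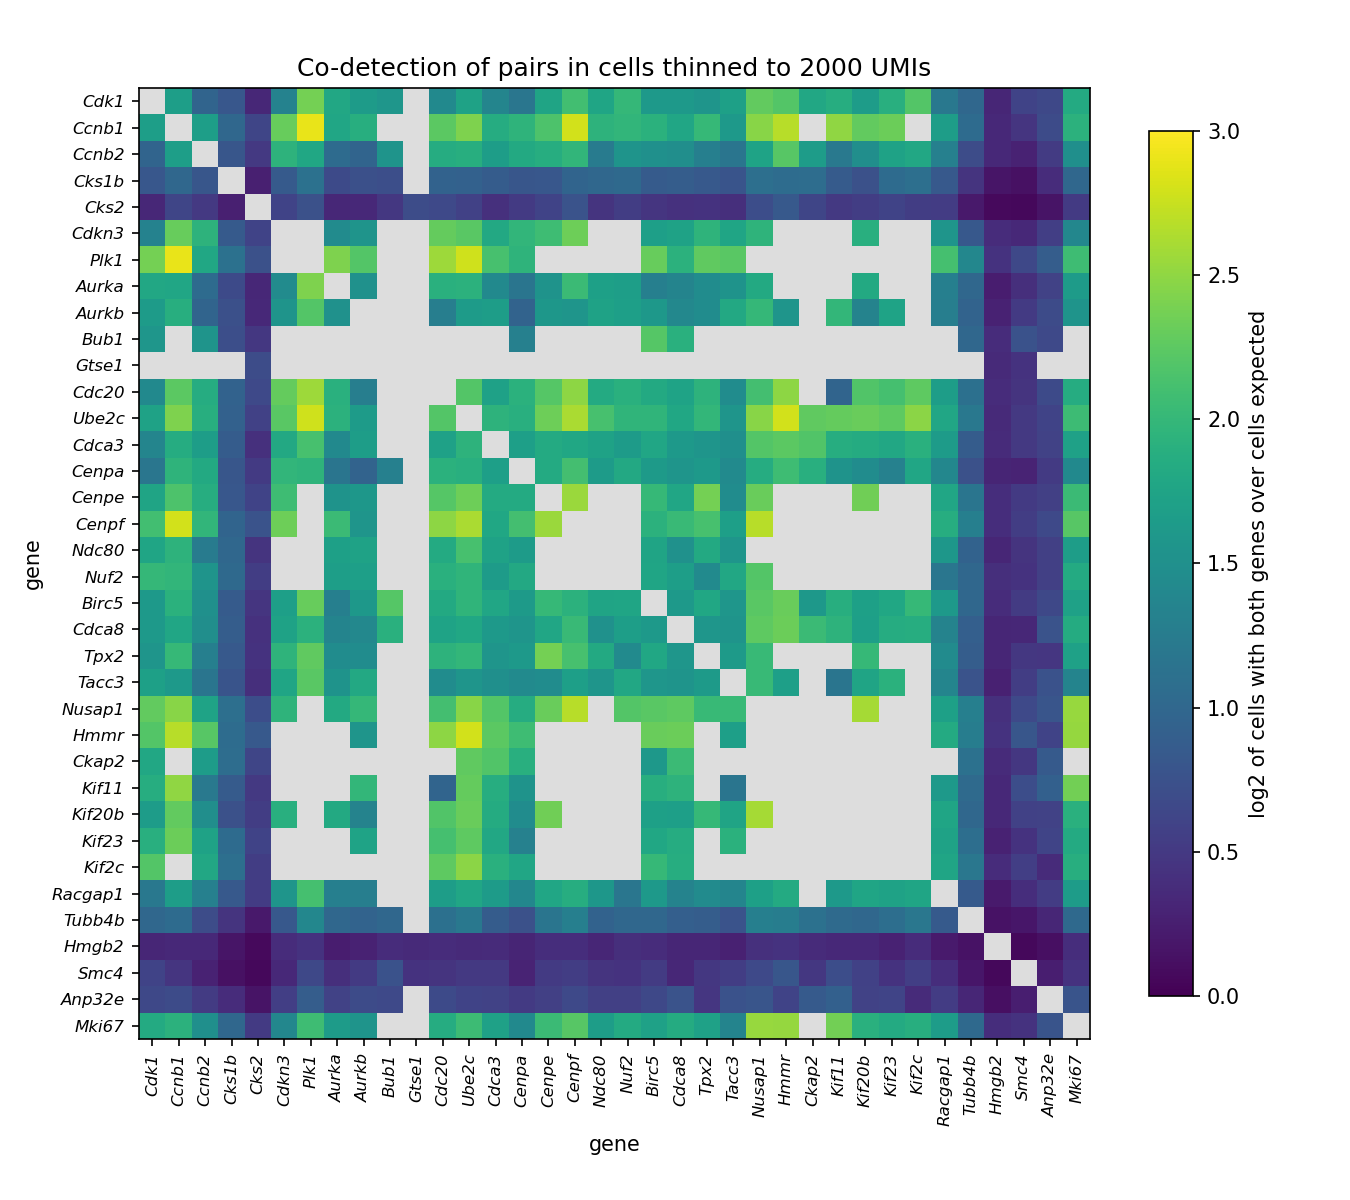
Log2 of the number of cells with both genes over the number expected, for pairs of the 36 genes with at least 5 cells expected (grey: fewer, or a gene with itself). The rows of Hmgb2, Cks2, Smc4 and Anp32e are dark throughout. These genes are widely detected, which limits how high their ratio can be. The brightest fields are Plk1, Ccnb1, Ube2c, Hmmr and Cenpf with each other (Ccnb1 and Plk1, 51 cells against 6.85).

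Genes whose proteins work in 1 complex were not the most strongly paired. Cdk1 with Ccnb1 had a ratio of 3.20 (74 cells against 23.1) and Cdk1 with Ccnb2 one of 1.96 (110 against 56.2). The passenger complex genes Birc5 and Cdca8 had 3.06 (216 against 70.5), Aurkb and Birc5 3.02, Kif23 and Racgap1 3.31 (23 against 6.94), and Ndc80 and Nuf2 2.92 from 10 cells. Taken by gene, the median ratio over the 35 partners was highest for Plk1 (5.17), Hmmr (5.00) and Nusap1 (4.57). It was lowest for Hmgb2 (1.27), Smc4 (1.38) and Cks2 (1.42). This ranking is not independent of detection, because the ratio has a lower ceiling for widely seen genes. Plk1 was seen in 2.51% of thinned cells, Hmgb2 in 72.0% and Cks2 in 46.6%. Median ratios were 2.22, 2.58, 4.25 and 3.46 in suffixes 1 to 4, higher in the suffixes with fewer cells that hold many genes. Most of the genes were also seen in a smaller share of cells there, and the part of this in the medians was not tested. Of the 308 thinned cells with a Cdc20 UMI, 46.4% also had Ccnb2, 47.1% Birc5 and 37.7% Ube2c, against 11.6%, 12.1% and 7.58% of all thinned cells.

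The genes differed in whether they were already raised in cells with S-phase transcripts. Cells were split at the 75th percentile of detected S-phase genes (8) and of the 36 genes (5 over all 36). The described gene was left out and the percentile taken anew for each gene. The cut was therefore lower for Cdk1, Ccnb2, Cenpa, Birc5, Cdca8 and the broad group than for the other genes. For Cdk1, 955 cells with many S genes and 934 with few counted as holding many of the 36, and for Aurkb 735 and 617. Ratios of genes from these 2 sets thus rest on different splits. Levels were compared first between cells with many S genes and few G2 and mitosis genes and cells with few of both. On that comparison 25 of the 36 genes were at least 1.5 times higher with an interval that excluded 1 (15.2% of all 8244 genes), and 0 were lower (12.7%). The shares over all genes come from 1 split that counted all 36 genes, so they rest on other cells than the values of each gene. Gtse1, under 5 CPM, is among the 36 but not among the 8244. With the split at the 50th percentile 12 were higher. Cdk1 stood at 6.55 CPM in cells with few of both and at 68.1 in the S-phase range (10.4 times, 6.95 to 15.8), then at 146 with many of both and at 87.8 with few S genes and many of the 36. Aurkb (6.37, 27.2, 97.3 and 47.0 CPM) and Ndc80 (2.64, 11.2, 45.7 and 26.7 CPM) had the same shape, highest where both sets were many. Cenpa stood at 21.7, 21.0, 120 and 306 CPM in the same order and Ube2c at 9.93, 10.6, 120 and 353, so neither was higher in the S-phase range.

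Among cells with many of the 36 genes, 15 were at least 1.5 times higher in those with few S genes than in those with many (6.31% of all genes), and 3 were lower, Aurkb (0.48 times, 0.35 to 0.66), Ndc80 (0.58) and Cdk1 (0.60) (6.44% of all genes). Here too the shares over all genes come from the single split that counted all 36 genes. The highest were Cdc20 (3.12 times, 2.44 to 4.03), Ube2c (2.95), Cdkn3 (2.91), Ccnb2 (2.57), Cenpa (2.54), Ccnb1 (2.23) and Cenpf (2.18). Of the cyclin and CDK genes, 4 of 6 were in that group, including Cks2 (1.62), whereas its paralog Cks1b was level (1.00, 0.90 to 1.11) but 3.32 times higher in the S-phase range. None of the 4 chromatin genes was in it (Mki67 1.09, Hmgb2 1.01). The rule had the described gene taken out of its own count, but the cells were still sorted by the other genes of the list, so the ratios describe the order within these cells. The late range depends on the split: at the 50th percentile 0 genes were higher, 25 were lower, and 14 of the 15 changed sign. The group of 3 lower genes was 0 at a depth of 4000 UMIs and 1 with another random draw. Without cells of over 2 times the median UMIs of their suffix, 8 genes were higher and 6 lower.

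**Figure D4:**
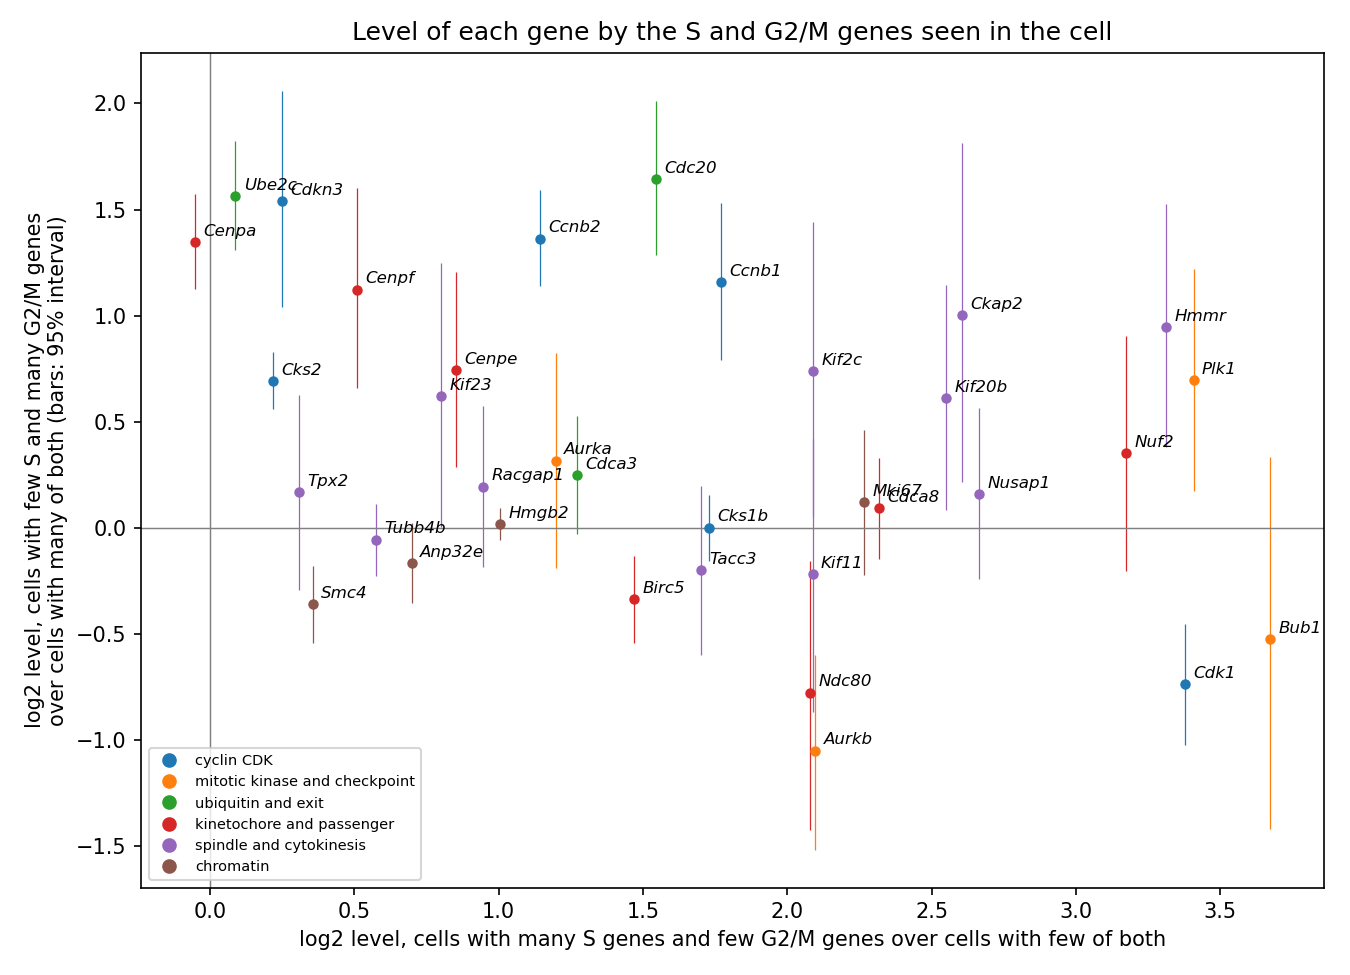
Each of 35 genes (Gtse1, with too few UMIs, left out) by the log2 ratio of cells with many S genes and few G2 and mitosis genes over cells with few of both (horizontal) and of cells with few S genes and many G2 and mitosis genes over cells with many of both (vertical, with 95% interval). Cenpa, Ube2c and Cdkn3 sit at the upper left, Cdc20, Ccnb2 and Ccnb1 at the upper middle, and Aurkb, Ndc80 and Cdk1 lowest (0.48, 0.58 and 0.60 times).

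Cells were next grouped by myeloid stage, from marker genes. Clusters were built from variable genes with the cell cycle lists, histone, ribosomal and mitochondrial genes left out, and a cluster was named only from its markers. Even so, 4 of 14 clusters had genes of the list among their 10 leading genes and held 61.0% of the cells with 10 or more of the 36, and these stayed unnamed. A second grouping, added after this was seen, used 94 marker genes alone, and its values stand beside the first. Within a suffix, each class was set against all remaining cells, as log2 of (CPM + 1). In the first grouping the remaining cells include the 4 unnamed clusters above, which raises the level that a named class is set against. The part of these clusters in the counts below was not tested. Counts rest on a 1.5 times difference, the same direction in each usable suffix and an interval that excluded 1.

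The neutrophil-like class (S100a8, S100a9, Ngp, Camp and Ltf; 135 cells in suffix 3 and 98 in suffix 4) had a higher summed level than the other cells in both suffixes. After thinning, 30 of its 247 cells (12.1%) held 10 or more of the genes, against 8.16% of all cells, while 55.1% held 2 or fewer and the median was 2. The summed level was 3547 CPM against 2872 in suffix 3 and 5231 against 3338 in suffix 4. Of 35 genes, 14 were higher (6.21% of all genes) and 0 lower (28.3%), and the median log2 difference was 0.49, against -0.39 for all genes. Taken by suffix, the median was 0.16 in suffix 3 and 0.74 in suffix 4. Kif23 was at 17.9 CPM against 10.2 in suffix 3 and at 34.6 against 13.2 in suffix 4 (median log2 1.05). Cdkn3 (0.88), Kif2c (0.84), Ndc80 (0.82) and Hmgb2 (0.76) followed. Hmgb2 was at 1561 CPM against 978 and at 2084 against 1159, so most of the difference in summed level in suffix 3 lay in this gene. Ube2c was level in suffix 3 (57.2 against 58.8 CPM) and high in suffix 4 (251 against 75.1), so it was not counted, and Cks1b lay below the other cells in both (105 against 160 and 133 against 181). On marker genes alone 13 were higher (6.02% of all genes), 0 were lower (28%) and the median was 0.42. At resolution 0.5 of the clustering 4 were higher and with no filter on cells 3.

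The monocyte-like class (Csf1r, Ccr2, Fn1, Klf4 and F13a1; 351 cells in suffix 3 and 308 in suffix 4) stood below. Its summed level was 1789 CPM against 3147 in suffix 3 and 2490 against 3652 in suffix 4. Of 35 genes, 27 were lower (14.6% of all genes) and 0 higher (13.1%), with a median log2 difference of -0.93, against -0.03 for all genes. Cenpf was at 2.55 CPM against 26.3 in suffix 3 and at 16.8 against 24.9 in suffix 4 (median log2 -1.75), Ccnb2 at 23.6 against 78.3 and 47.4 against 85.8 (-1.27), and Cks1b at 77.1 against 170 and 80.9 against 197 (-1.20). Racgap1 was level, at 42.7 CPM against 41.0 and 46.6 against 49.6, as was its partner Kif23 (8.28 against 11.4 and 15.3 against 14.5). On marker genes alone 20 of the 35 were lower (12.5% of all genes) and 0 higher (11.5%), the median was -0.71, and Racgap1 and Kif23 stood at 0.49 and 0.31. At resolution 1.5, where the class is made of other clusters, 1 gene was lower and 3 were higher, so the call does not hold for every way of drawing this class.

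The granulocyte precursor-like class (Mpo, Ctsg, Ms4a3, Cebpe and Nkg7; 296 cells in suffix 1 and 389 in suffix 2) had a summed level of 3367 CPM against 4596 in suffix 1 and 3125 against 4113 in suffix 2. There 22 of 35 genes were lower (9.17% of all genes) and 0 higher (2.63%), with a median log2 difference of -0.65 against -0.09 for all genes. Hmmr (-1.28), Ube2c (-1.25), Nusap1 (-1.24) and Cenpf (-1.23) had the largest differences, and Cks2 (0.06) and Smc4 (0.02) had none. On marker genes alone, where the class had at least 30 cells in all 4 suffixes, 4 genes were lower, Kif23, Plk1, Racgap1 and Nusap1 (8.21% of all genes), 0 were higher (2.01%), and the median was -0.34. The counts were 10 at resolution 0.5, 10 without the marked doublets and 9 with no filter on cells.

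Grouping on marker genes alone gave 2 further classes. In an eosinophil-like class (Prg2, Prg3 and Siglecf; 87 cells in suffix 3 and 95 in suffix 4), 15 of 35 genes were lower (4.17% of all genes) and 0 higher (3.04%), with a median log2 difference of -0.71 and a summed level of 2578 CPM against 2952 in suffix 3 and 2439 against 3531 in suffix 4. Of the 9 listed eosinophil markers, 5 had no UMI in any suffix, so the name rests on few markers. The list summed to between 19.6 and 97.5 CPM in the suffixes. In a class of 342 cells with raised Flt3, Adgrg1, Gata2 and Sox4, which also held 2 basophil and mast cell markers among its 10 leading genes (Mcpt8 and Cpa3), 0 of 35 genes were higher (3.25%) and 0 lower (3.85%), with a median of 0.038. By suffix the summed level was 4249 CPM against 4265 in suffix 1, 4276 against 3747 in suffix 2, 2987 against 2930.4 in suffix 3 and 2554 against 3492 in suffix 4, where the median log2 difference was -0.80.

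**Figure D5:**
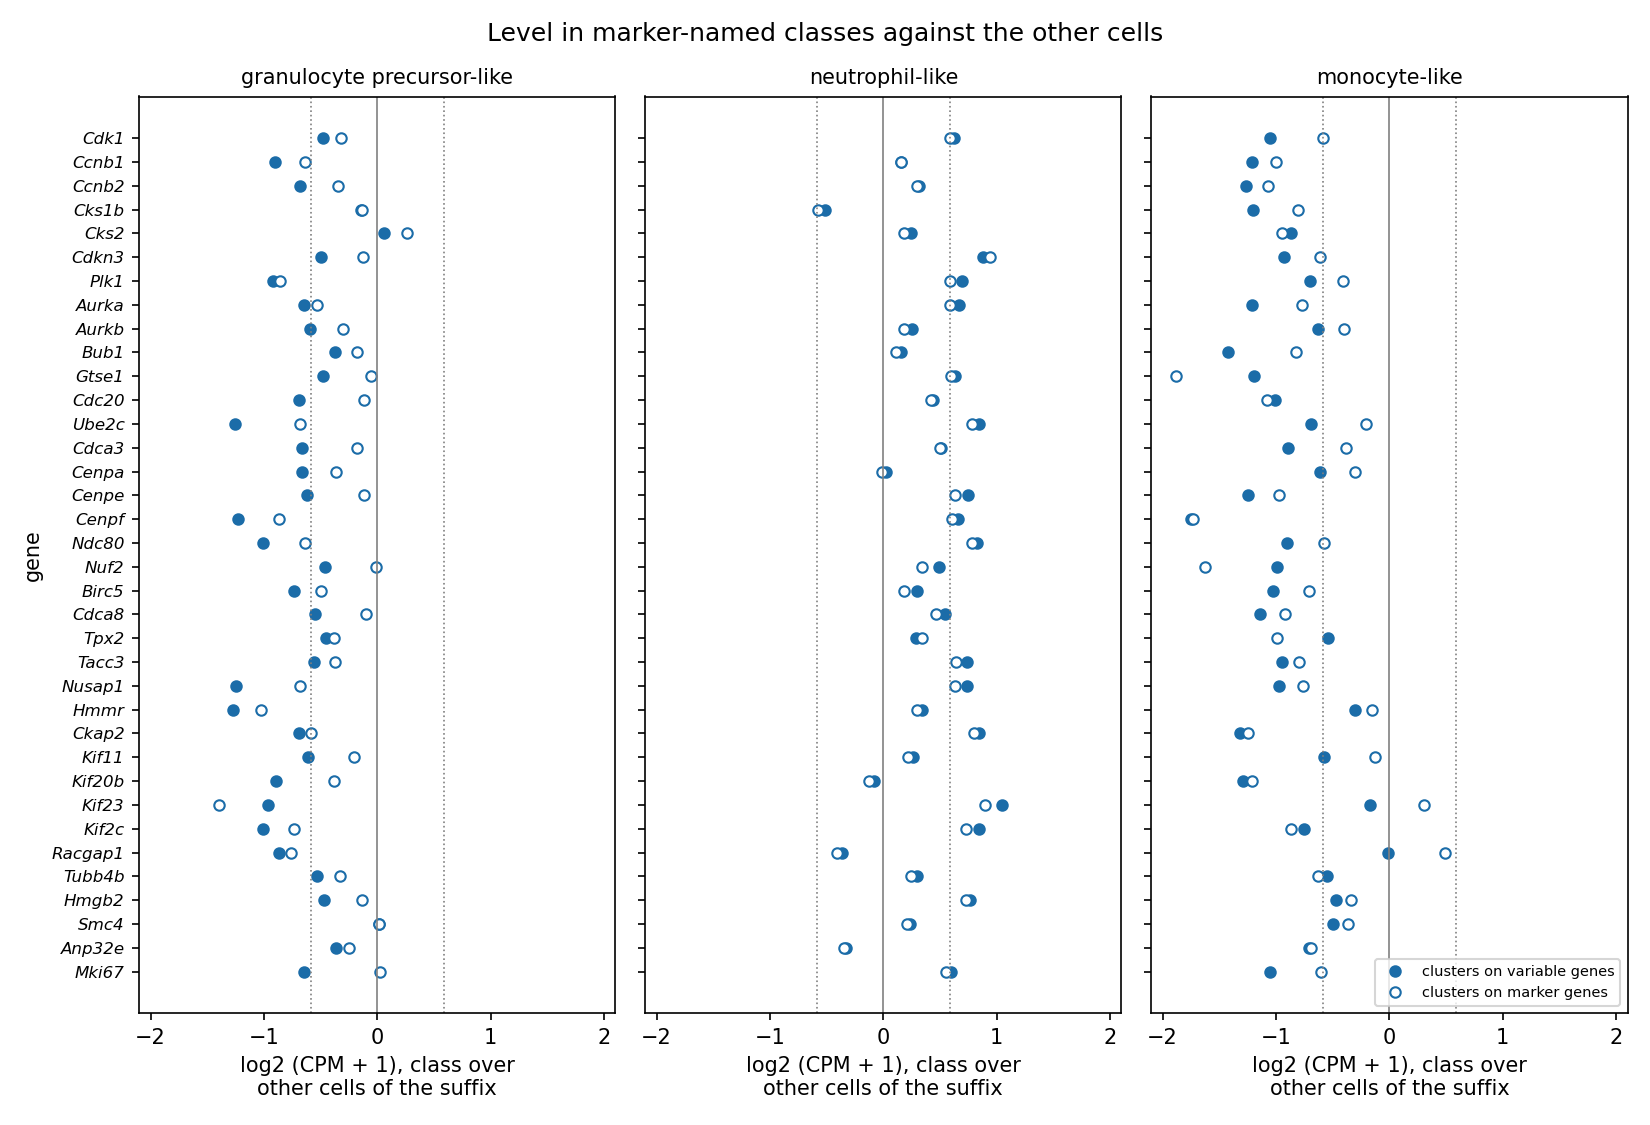
Median log2 of (CPM + 1) in each class over the remaining cells of its suffix, for the 36 genes, with filled points for clusters on variable genes and open points for clusters on marker genes; dotted lines mark 1.5 times. Most points lie right of 0 in the neutrophil-like class and left of 0 in the monocyte-like class, with Racgap1 and Kif23 at or right of 0 among the open points there (0.49 and 0.31).

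Other genes of the same steps, from a list of 77 that holds none of the 36, followed the number of genes seen. In cells with 10 or more of the 36 genes against cells with 2 or fewer, 53 of the 69 at 5 CPM were at least 2 times higher in every suffix and 0 were lower, with a median log2 difference of 3.03 (2% of all other genes were higher and 1.15% lower, and their median was -0.02). Ccna2, the S and G2 cyclin, was at 183 CPM against 2.24, and Ckap2l, a spindle protein, at 74.5 against 1.22. H2afz, the histone H2A.Z, was at 4094 against 1109 and Stmn1, which destabilises microtubules, at 1767 against 374. Of 54 S-phase genes, 12 were higher (median log2 1.10), with 2810417H13Rik, the PCNA-associated factor, at 805 against 44.2 CPM and Rrm2, a ribonucleotide reductase subunit, at 243 against 23.8. Of 20 G1 genes, 1 was higher, Cdkn2a, which encodes p16 and p19 Arf, at 31.0 against 6.11 CPM from 27 and 30 UMIs, and the median was 0.01. Cdk6 was at 329 against 307 CPM.

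Outside the list, the genes whose level across the 5342 thinned cells was most like the number of the 36 detected were H2afz (Pearson r = 0.51), Tubb5 (0.50), Tuba1b (0.49), 2810417H13Rik (0.46), Stmn1 (0.44), H2afx (0.43), Top2a (0.43), Ptma (0.42), Hist1h2ap (0.41) and Ccna2 (0.39). These are descriptions over cells that share 4 libraries and 1 depth, and they favour abundant genes. Of the 10, 7 stand on the list of other G2 and mitosis genes, 1 on the S-phase list and 2, Ptma and Hist1h2ap, on none.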

How the data were processed

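UMI counts were deposited by the authors as 1 table of whole numbers with no normalization, 27998 gene symbols by 5664 barcodes. Reads had been processed with Cell Ranger 1.3 against mm10, per the submitters' processing notes, which name Seurat 2.3.4 (the series design text names Seurat 1.4), from 10x Chromium 3' V2 libraries, per the labels' protocols. No source used here names the annotation.

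A barcode was kept from 500 UMIs upward unless over 10% of its UMIs were mitochondrial (5456 cells). The mitochondrial limit removed 208 barcodes and the UMI minimum 0. Totals per suffix were 7644436, 8327726, 9932649 and 8550371 UMIs. A count of 0 allows 3 counts, or 0.302 to 0.392 CPM. Levels are CPM with exact Poisson intervals, ratios have exact conditional binomial intervals and shares exact binomial ones. Thinning drew 2000 UMIs per cell without replacement. Clusters came from scanpy 1.11.5 (2000 variable genes, 30 components, 15 neighbours, Leiden resolution 1). A name needed at least 3 markers at 2 times the other cells and 20 CPM, and the most markers among the 10 leading genes. Scrublet marked 27 cells (0.495%), and whether it found the doublets present was not tested. Doublets were not removed in the main setting. In an added alternative, 345 cells above 2 times the median UMIs of their suffix were left out. Scaling alternatives used edgeR 4.0.16. The call rules were tested on simulated data.

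All 36 genes could be named. Other genes were named as the 2 most abundant and the 2 with the largest log2 ratio of a list, of which some are left out, or as the 10 most like the number of genes detected. The genes and lists were chosen with earlier results of these data known. Gene positions are from GENCODE vM21 and promoters from RefSeq (GRCm38.p6). None of the 36 overlaps another coding gene on its strand.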

Additional observations from a re-analysis of the deposited data

Results flagged for a closer look

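The 208 barcodes above 10% mitochondrial UMIs, which no comparison used, held transcripts of the 36 genes at a summed level of 4044 CPM (3852 to 4243), above the 7.31 CPM that a count of 0 allows and above the 3565 CPM of the kept cells. Their median was 1849 UMIs. By suffix the summed level was 4051, 3598, 3616 and 5129 CPM, so it lay below the kept cells in suffixes 1 and 2 (4263 and 3779) and above them in suffixes 3 and 4 (2932 and 3466). These barcodes were selected on mitochondrial UMIs, which count in those totals. Over non-mitochondrial UMIs alone, an alternative added after seeing the data, the level was above the kept cells in all 4 suffixes (4746 against 4392, 4254 against 3891, 4281 against 3011 and 6065 against 3565 CPM). Of the 36 genes, 17 were at least 1.5 times higher than in kept cells (23% of all genes) and 2, Cks2 and Ube2c, were lower (11.6% of all genes). Over non-mitochondrial UMIs 20 were higher (29% of all genes) and 0 lower (7.69%), with ratios of 0.70 (0.567 to 0.858) for Cks2 and 0.66 (0.395 to 1.03) for Ube2c. Over all UMIs, Mki67 was at 205 CPM against 45.5 (3.57 to 5.61 times higher), Kif20b, a mitotic kinesin, at 78.0 against 17.9, Kif2c at 41.4 against 10.6, Nuf2 at 68.3 against 17.7, Cenpf at 80.4 against 23.5 and Cenpe at 75.6 against 23.1. Cks2 was at 232 against 379 CPM and Ube2c at 46.3 against 80.9. What these barcodes are was not tested.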

How the results depend on the processing

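No paired analysis was possible because each group has 1 sample and no barcode suffix is tied to one. Of the alternative values of counts and shares, 91 stayed within 1.5 times of the reported value or within its interval and 24 did not; of 920 values of single genes, 658 moved by less than their error, 227 by more and 35 changed sign. The cause was not tested. The median share of cells with 10 or more of the genes (8.45%) was 2.34% at 1000 UMIs and 18.5% at 4000, and 28 other G2 and mitosis genes in place of 53 were higher at 1000.

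The granulocyte precursor-like count of 22 lower genes was 10 at resolution 0.5, 10 with doublets removed, 9 with no filter on cells and 4 on marker genes alone; Kif11 then stood at 0.13 (no filter) and Mki67 at 0.022 (marker genes). The neutrophil-like count of 14 higher genes was 4 at resolution 0.5 and 3 with no filter, and 1 gene was lower at resolutions 0.5 and 1.5 and with cycle genes kept. At resolution 1.5 the monocyte-like class had 1 lower and 3 higher genes, with Ccnb2 at 0.38, Cdkn3 at 0.69, Plk1 at 0.18, Cdc20 at 0.15, Ube2c at 0.53, Cdca3 at 0.11, Cenpa at 0.51 and Kif2c at 0.075. No cluster was named monocyte-like at resolution 0.5 or with doublets removed.

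The S-phase count of 25 was 12 with the split at the 50th percentile. The late count of 15 was 6 at 1000 UMIs, 0 at the 50th percentile and 8 without cells of high UMIs. The 3 lower genes became 5 at 1000 UMIs, 0 at 4000, 1 with another seed, 1 at the 90th percentile, 25 at the 50th and 6 without cells of high UMIs. As log2 values, the early ratio of Ccnb2 was -0.059 at 4000 UMIs and -0.36 at the 90th percentile, and that of Cdc20 -0.24 at the 50th. Late ratios at the 50th percentile were -0.61 for Ccnb1, -0.028 for Ccnb2, -0.40 for Cks2, -0.025 for Cdkn3, -0.86 for Plk1, -0.089 for Cdc20, -0.38 for Ube2c, -0.42 for Cenpe, -0.14 for Cenpf, -0.55 for Hmmr, -0.029 for Ckap2, -1.29 for Kif20b, -0.21 for Kif23 and -1.13 for Kif2c. At 1000 UMIs they were -0.013 for Plk1, -0.66 for Ckap2 and -0.77 for Kif23. Kif20b was at -0.022 with another seed and -0.42 without cells of high UMIs, Kif23 at -0.19 with doublets removed, and Ndc80 at 0.13 at 4000 UMIs and 0.027 at the 90th percentile. The marker-gene clusters, the removal of cells of high UMIs and the restriction to pairs with 5 expected cells were chosen after seeing the data. Depth limits Gtse1, Bub1, Ckap2 and Kif2c most, each under 14 CPM in every suffix.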
